A study of Homo sapiens with 24 samples.

Results

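The SOX genes encode transcription factors that bind DNA through a high mobility group (HMG) box, a domain related to that of the Tcf/Lef factors of Wnt signaling, and that are sorted into subgroups by the similarity of this box. In the intestinal crypt SOX9 is a known target of Wnt/Tcf4 activity and SOX4 is also a known Wnt-responsive gene, whereas SOX2 is best known from pluripotent and neural cells and from the foregut. Members were the 10 SOX genes SOX2, SOX4, SOX5, SOX7, SOX8, SOX9, SOX12, SOX13, SOX15 and SOX18, taken by the gene name that the array files give to a probe. They have 11 probes of 34127 on the array, and 10 of the 27263 genes named there. In the colorectal cancer line HCT-116, butyrate raised SOX2 and SOX8 with and without doxycycline, SOX4 and SOX9 were lower in cells given butyrate and doxycycline than in cells given butyrate alone, and 4 of the 10 genes had no probe bright enough to be tested.

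The arrays came from a single HCT-116 clone, an epithelial line from a human colorectal carcinoma, that carried stably a Tet repressor and a Tet-inducible vector for dominant negative Tcf4 (DN-Tcf4), a form of the factor that occupies Tcf sites and represses Wnt target genes. Cells of every group carried both vectors. They were left without agents (Ctl), given 5 mM sodium butyrate, an inhibitor of histone deacetylases (NaB), given 4 μg/ml doxycycline, which releases the Tet repressor (Doxy), or given both (DoxyNaB), with 17.5 hr of butyrate. There were 6 experiments with 1 single-colour array for each of the 4 treatments, 24 arrays in all. A design of this kind asks which butyrate responses persist in cells that were also given doxycycline. All levels are the log2 ratio of a probe's signal to the 75th percentile of its array. A probe is called well above background when its signal passed the test of the scanning software, and it was tested when it did so on all 6 arrays of at least 1 treatment. Levels of different probes were not set against each other.

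Between 52.7% and 62.6% of spots were well above background in experiments 1, 5 and 6, and between 78.4% and 88.1% in experiments 2 to 4, which were scanned on 1 day. In experiment 1 the butyrate arrays were on another slide, scanned on another day, than the arrays without butyrate, so butyrate, slide and scan cannot be told apart there. The probe for TCF7L2, the gene of Tcf4, ran from -4.11 to -1.57 in Ctl, from -2.75 to -0.29 in NaB, from -3.59 to -1.50 in Doxy and from 0.54 to 1.92 in DoxyNaB cells. It thus stood apart only in DoxyNaB cells, and its change from Ctl to Doxy was -0.17 (adjusted p = 0.921 from limma). From Doxy to DoxyNaB its change was 4.04 (adjusted p = 1.07e-08 from limma). That comparison therefore holds butyrate and the rise of this signal together, and their effects cannot be told apart in it. AXIN2, a negative feedback gene of Wnt signaling, ran from -0.34 to 0.40 in Ctl and from 0.53 to 2.10 in NaB cells. In Doxy cells it ran from -1.05 to 0.01, and in DoxyNaB cells from -1.75 to -1.04. From Ctl to Doxy the AXIN2 change was -0.58 (adjusted p = 0.0029 from limma), so AXIN2 was lower with doxycycline alone as well. Of 6 markers of the colon epithelium, 4 were well above background on all 24 arrays. EPCAM was counted so on 22, where an array on which its spots were left out as outliers counts as not. Its lowest level on the other arrays was 1.39. VIL1, of the brush border, was so on 5.

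The probe sequences show what each level measured, and those of the 6 genes tested are given by their first 30 of 60 bases, 5′ to 3′, with positions on NCBI36. All 7 probes lie on the plus strand. Capitals mark CAG triplets in the 2 SOX13 probes. The part of the transcript that a probe matches was not given in the sources used here.
SOX2 (chr3:182914571-182914600): tggccatgcaggttgacaccgttggtaatt
SOX8 (chr16:976894-976923): cctgctgccttcactcctttctgaccaagc
SOX9 (chr17:67633436-67633465): aaagcaagtttctttgtattcctcacccta
SOX4 (chr6:21705980-21706009): ggcggctggttaatatctcacacagtttaa
SOX12 (chr20:258276-258305): ttcttgtctttgaggttctgactggtgttt
SOX13, tested probe (chr1:202363174-202363203): ttcacaaagtttgttccctaaggaaatcaa
SOX13, other probe (chr1:202352881-202352910): gCAGCAGCAGCAGctgattCAGCAGCAGca
The second SOX13 probe is rich in CAG triplets, with 10 in its 60 bases, and the tested SOX13 probe holds 0. G and C made up 36.7% to 45% of the bases of the 6 tested probes, 53.3% of the CAG-rich probe and 15% of the SOX18 probe.

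RefSeq promoter windows, from 250 bases before to 50 after the transcription start on GRCh38.p14, were used for 5 of the 10 genes, SOX2, SOX4, SOX5, SOX12 and SOX13. SOX7 was not looked up. The 250 upstream bases are printed for SOX2, which responded to butyrate, and for SOX4, which was lower with both agents than with butyrate alone. Both lie on the plus strand, and capitals mark a match to a motif searched for.
SOX2 (chr3:181711675-181711924): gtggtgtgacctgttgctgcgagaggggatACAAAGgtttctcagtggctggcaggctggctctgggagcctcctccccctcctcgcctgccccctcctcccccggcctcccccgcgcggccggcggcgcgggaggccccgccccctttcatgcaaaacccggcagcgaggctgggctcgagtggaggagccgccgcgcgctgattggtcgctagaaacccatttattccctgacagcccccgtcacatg
SOX4 (chr6:21593501-21593750): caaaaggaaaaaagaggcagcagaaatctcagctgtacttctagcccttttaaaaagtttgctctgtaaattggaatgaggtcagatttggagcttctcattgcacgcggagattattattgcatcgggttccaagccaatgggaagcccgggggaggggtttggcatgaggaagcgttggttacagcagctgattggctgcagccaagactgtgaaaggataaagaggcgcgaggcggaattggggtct
The Tcf/Lef letters CTTTGAT and CTTTGAA, searched on both strands, were in 0 of the 5 windows, against 2.62% and 4.43% of all 35116 promoters. Other forms of the Tcf/Lef letters were not searched. The SOX letters ACAAAG were in the SOX2 window, beginning at position -220 from the start, against 16.1% of all promoters. Read on the opposite strand, ACAAAG begins with the CTTTG of both Tcf/Lef motifs, so the match does not tell these factor families apart. The letters ACAATG were in the SOX5 window at -180 and -138 on the opposite strand, against 10.8%. G and C made up 68.8% of the SOX2 stretch and 48.8% of the SOX4 stretch.

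Butyrate raised SOX2 and SOX8 more than 2-fold, both without and with doxycycline. A call here needs an adjusted p under 0.01 (limma, Benjamini-Hochberg over all probes tested) and a change of more than 2-fold. Butyrate moved a large part of the array: of 18984 probes, 31.7% were called in NaB/Ctl, 20.7% higher and 11% lower, and 30.6% in DoxyNaB/Doxy, 18.3% higher and 12.3% lower. Read against these shares, 2 of 6 SOX genes called higher is not a count that stands out, and what follows describes the single genes.

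SOX2, of subgroup SoxB1, maintains pluripotent and neural progenitor states. Its level had a lowest, median and highest value of -5.89, -4.97 and -3.75 in Ctl cells and of -1.34, -1.06 and -0.95 in NaB cells. In Doxy cells these values were -5.78, -5.23 and -5.10, and in DoxyNaB cells -2.08, -1.78 and -1.50. Every butyrate array was above every array without butyrate. The probe was well above background on all 12 butyrate arrays, on 5 of 6 Ctl arrays and on 2 of 6 Doxy arrays. It therefore entered the test only through the treatments in which it was high, and with a filter on all arrays it was not tested. Its folds are set against levels at the limit of the array, above all in Doxy cells, so their sizes are uncertain. The change was 3.83 ± 0.75 in NaB/Ctl (SD over 6 experiments), 14.2-fold, with an adjusted p of 1.74e-10 from limma. In DoxyNaB/Doxy it was 3.51 ± 0.36, 11.4-fold (adjusted p = 5.97e-10). Both changes were larger than the spread between experiments and higher in 6 of 6. The size depended on the processing: the folds were 3.57 and 3.25 with normexp correction, 8.52 and 6.18 with quantile normalization, and 8.46 and 7.71 with scaling to the median, all called. SOX2 lies within SOX2-OT, a noncoding RNA gene on the same strand, whose own probe was well above background on 1 of 24 arrays.

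**Figure D1:**
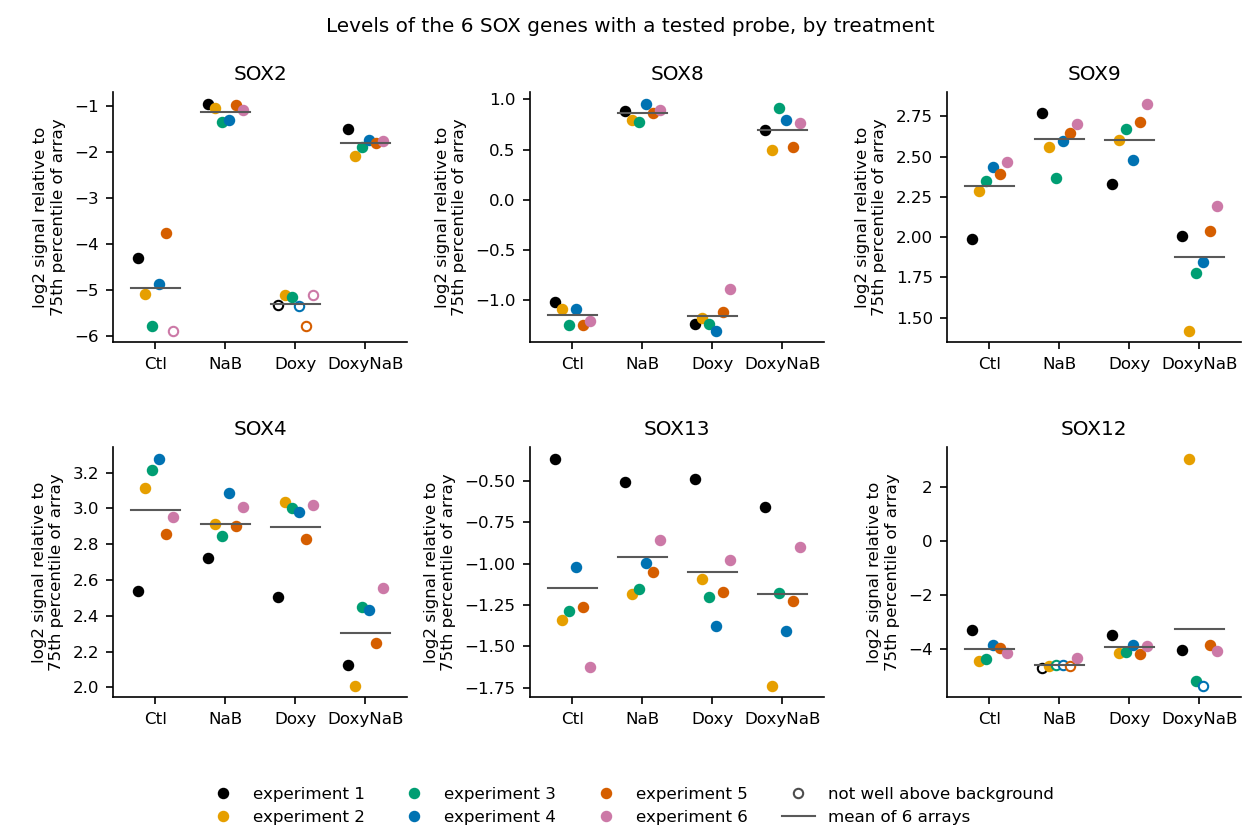
Levels of the 6 SOX genes with a tested probe (y axis, log2 ratio of signal to array 75th percentile) by treatment (x axis), with 1 point per array coloured by experiment, open where not well above background, and a line at the mean of 6 arrays. SOX2 and SOX8 separate by butyrate, SOX4 and SOX9 are low in DoxyNaB cells, and the SOX12 panel is stretched by the DoxyNaB array of experiment 2 at 3.03.

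SOX8, of subgroup SoxE, acts in the neural crest and in the developing testis together with its relative SOX9. Its lowest, median and highest levels were -1.25, -1.15 and -1.02 in Ctl, 0.77, 0.88 and 0.96 in NaB, -1.31, -1.21 and -0.89 in Doxy, and 0.50, 0.73 and 0.91 in DoxyNaB cells. Again no array with butyrate overlapped one without, and here every array was well above background. SOX8 rose by 2.02 ± 0.10 in NaB/Ctl (SD, n = 6 experiments), 4.04-fold (adjusted p = 1.74e-13 from limma). It rose by 1.86 ± 0.24 in DoxyNaB/Doxy, 3.64-fold (adjusted p = 4.53e-13). With scaling to the median the folds were 2.40 and 2.47. Among the 6 genes tested it had the smallest spread between experiments in NaB/Ctl.

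The interaction, meaning the response without doxycycline minus that with it, was 0.15 for SOX8 (95% interval -0.08 to 0.39, adjusted p = 0.659 from limma), so a difference within that interval is not excluded. For SOX2 the fitted value was 0.32 (95% interval -0.43 to 1.08, adjusted p = 0.797). Because 4 of the 6 Doxy arrays and 1 Ctl array were not well above background for SOX2, this value gives no limit on how far its response differed with doxycycline.

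**Figure D2:**
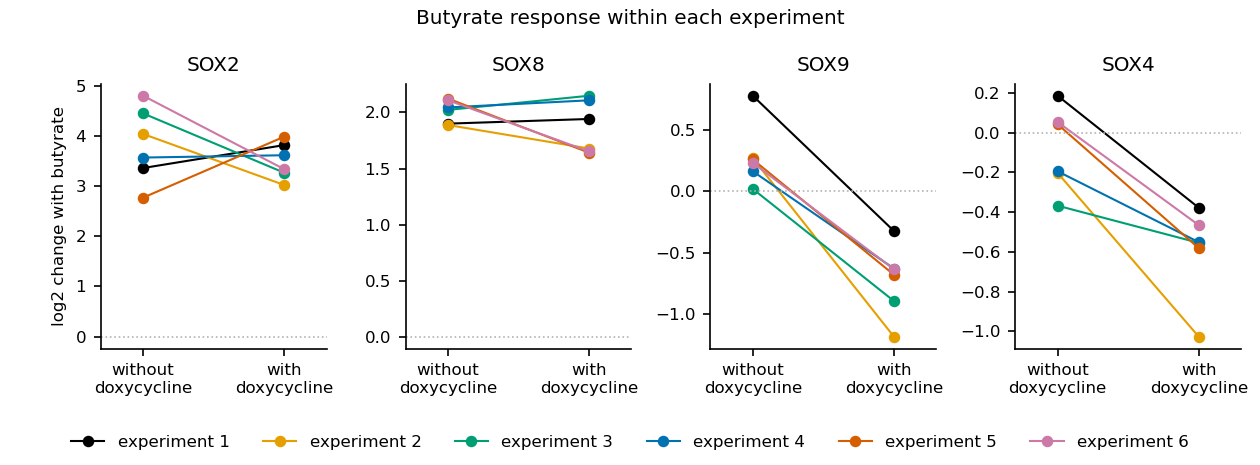
Log2 change with butyrate (y axis) without and with doxycycline (x axis) in each of 6 experiments (coloured lines), for SOX2, SOX8, SOX9 and SOX4, each with its own scale. The SOX9 and SOX4 lines descend in 6 of 6 experiments, and the SOX2 and SOX8 lines run in both directions.

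SOX9, the SoxE relative of SOX8, encodes a factor of crypt progenitor cells. It had lowest, median and highest levels of 1.99, 2.37 and 2.47 in Ctl, 2.37, 2.62 and 2.77 in NaB, and 2.33, 2.64 and 2.83 in Doxy cells. In DoxyNaB cells they were 1.42, 1.93 and 2.19, with every array below every array of NaB and of Doxy cells, while the Ctl arrays overlapped with all other groups. The butyrate response was 0.29 ± 0.26 without doxycycline (SD, n = 6 experiments), higher in 6 of 6, with an adjusted p of 0.0162 from limma. It was -0.73 ± 0.29 with doxycycline, lower in 6 of 6 (adjusted p = 3.98e-06), which is under 2-fold. The direction without doxycycline rested on the scaling, since it was -0.46 with scaling to the median (adjusted p = 0.0883), where the median change of all probes was itself -0.58, against 0.17 in the scaling used here. Relative to those medians the SOX9 change was 0.12 under both, a match that follows from scalings that differ almost only by a constant per array. Relative to the medians of their own settings it was 0.26 with normexp correction and 0.57 with quantile normalization. In experiment 1 alone, with its 2 slides, it was 0.78, and in the others between 0.02 and 0.27.

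The response of SOX9 to butyrate differed with doxycycline by 1.01 ± 0.24 (SD, n = 6 experiments), with each experiment between 0.79 and 1.46 (adjusted p = 0.000446 from limma). Of all probes tested, 1.24% passed the interaction test at an adjusted p under 0.01, and SOX9 was 1 of the 6 SOX genes. SOX9 was lower in DoxyNaB than in NaB cells by 0.73 ± 0.22, 0.604-fold, in 6 of 6 experiments (adjusted p = 0.000173), where 2.49% of all probes passed at an adjusted p under 0.01 and 1.87% were lower. Within scans the interaction was 1.06 over experiments 2 to 4 (adjusted p = 0.120) and 0.91 over experiments 5 and 6 (adjusted p = 0.116), and the DoxyNaB/NaB change was -0.83 and -0.56 (adjusted p = 0.0388 and 0.108). Neither call was kept when arrays were scaled to their median, at an interaction of 0.82 (adjusted p = 0.983) and a DoxyNaB/NaB change of -0.62 (adjusted p = 0.818). Relative to the median change of all probes the DoxyNaB/NaB change was -0.70 both with that scaling and with the one used here. By the methods' t-test with adjustment neither call of SOX9 was kept. With only the NaB and DoxyNaB arrays in the fit, the DoxyNaB/NaB call was not kept.

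SOX4, of subgroup SoxC, acts in progenitor cells of many tissues. It had lowest, median and highest levels of 2.54, 3.03 and 3.28 in Ctl, 2.73, 2.91 and 3.08 in NaB, 2.50, 2.99 and 3.04 in Doxy, and 2.01, 2.34 and 2.55 in DoxyNaB cells. The DoxyNaB arrays lay below all NaB arrays, but the highest of them overlapped with the lowest Doxy and Ctl arrays. The groups without both agents overlapped with each other. The change in DoxyNaB/NaB was -0.61 ± 0.18 (SD, n = 6 experiments), 0.656-fold, lower in 6 of 6 (adjusted p = 0.000153 from limma). In NaB/Ctl it was -0.08 (95% interval -0.26 to 0.10, adjusted p = 0.394) and in DoxyNaB/Doxy -0.59 (adjusted p = 4.67e-06). The interaction of 0.51 ± 0.22 was above 0 in 6 of 6 experiments and did not pass 0.01 (adjusted p = 0.0281). SOX4 and SOX9 were thus the 2 of 6 genes lower in DoxyNaB/Doxy at the adjusted p alone, where 29.7% of all probes were. The DoxyNaB/NaB call of SOX4 was not kept within experiments 2 to 4 (-0.65, adjusted p = 0.0711), within experiments 5 and 6 (-0.55, adjusted p = 0.139) or with scaling to the median (-0.50, adjusted p = 1). Relative to the median change of all probes the SOX4 change was -0.58 both with that scaling and with the one used here. Nor was the DoxyNaB/NaB call of SOX4 kept with only the NaB and DoxyNaB arrays in the fit (adjusted p = 0.0159 from limma). By the methods' t-test with adjustment it was not kept either (adjusted p = 0.0365).

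**Figure D3:**
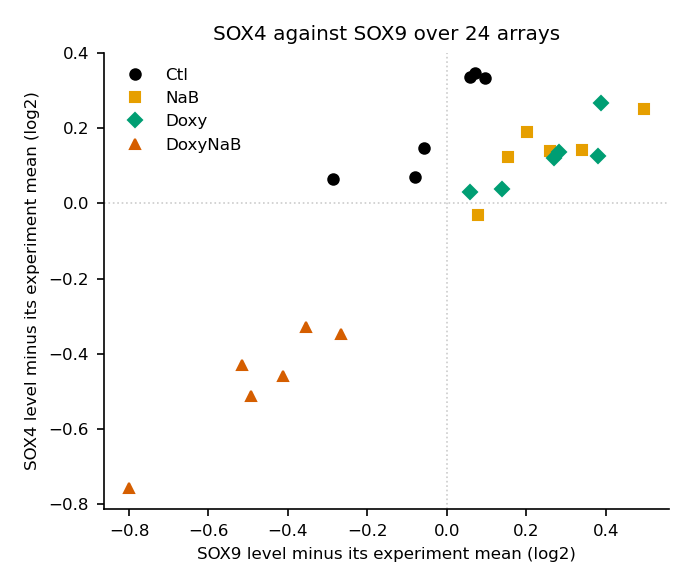
SOX4 level (y axis) against SOX9 level (x axis), both log2 and centred on the mean of their experiment, with 1 point per array and 4 symbols for the treatments. The 6 DoxyNaB arrays lie apart at the lower left, and the other 18 arrays form a group without a clear slope.

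Because the DoxyNaB arrays stood apart, no correlation of SOX4 and SOX9 over all arrays is given. Over the 18 arrays of the other treatments, centred on the experiment, Pearson's r was 0.14. Over the 6 DoxyNaB arrays, with 1 per experiment and levels not centred, it was 0.58. The latter value also holds differences between experiments, so it cannot be set against the former. Both are descriptions of arrays that share a cell clone and a scaling. Among 11999 other genes well above background on all arrays, those with levels most like SOX4 over the 24 arrays were FAT1 (r = 0.95), PLK2 (0.94) and MAP2K4 (0.94). For SOX9 they were ITPRIP (0.92), ANXA1 (0.92) and SGMS1 (0.89). FAT1 encodes an atypical cadherin, PLK2 and MAP2K4 encode kinases, and ANXA1 encodes an annexin. Without the DoxyNaB arrays r was between 0.45 and 0.75 for the genes named beside SOX4 and between 0.76 and 0.81 for those beside SOX9, so that more of the likeness to SOX4 came with the DoxyNaB arrays.

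Doxycycline without butyrate had no called effect on a SOX gene, in a comparison where the TCF7L2 probe did not rise (-0.17). At an adjusted p under 0.01 from limma, 0 of the 6 genes tested passed in Doxy/Ctl, where 0.5% of all probes did. At an unadjusted p under 0.05 the only one was SOX9, at 0.29 ± 0.12 and higher in 6 of 6 experiments (unadjusted p = 0.0119, adjusted p = 0.222 from limma, 95% interval 0.07 to 0.50). By the methods' t-test without adjustment SOX9 passed 0.01 (p = 0.00213 from the paired test over 6 experiments, not an exact test), and with adjustment it did not. The SOX2 change of -0.35 had a fitted interval from -0.89 to 0.18. SOX2 was well above background on 5 of 6 Ctl and 2 of 6 Doxy arrays, so this interval gives no limit on a loss.

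With butyrate present, SOX2 was also lower in DoxyNaB than in NaB cells in 6 of 6 experiments, by between 0.43 and 1.04 on the log2 scale, and the 2 groups did not overlap. This change of -0.68 ± 0.22 (SD) was larger than its spread between experiments, yet its adjusted p was 0.170 from limma. By the methods' t-test the unadjusted p was 0.000681 (paired over the experiments, not an exact test) and the adjusted p 0.0475. With only the NaB and DoxyNaB arrays in the fit of limma the adjusted p was 0.0171. For comparison, the level of SOX2 among the dim Ctl arrays had an SD of 0.83, and the fit of all 4 treatments shares 1 estimate of the spread. The part of this spread in the adjusted p of SOX2 was not tested. SOX8 was lower in 5 of 6 experiments, by 0.16 on average (95% interval -0.33 to 0.003, adjusted p = 0.341).

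**Figure D4:**
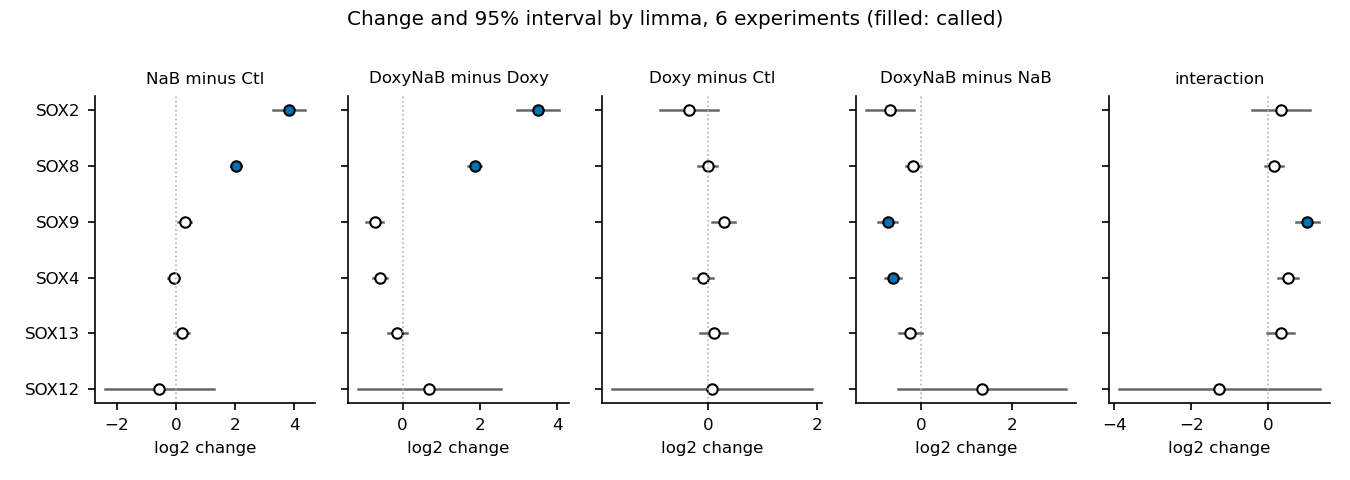
Log2 change (x axis) of the 6 SOX genes with a tested probe (y axis) in 4 comparisons of treatments and their interaction, with the 95% interval from limma as a bar and calls as filled points. SOX2 and SOX8 are called in both butyrate comparisons, SOX9 and SOX4 in DoxyNaB minus NaB, and SOX9 in the interaction. Each panel has its own scale.

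SOX13 and SOX12 gave no call. SOX13, a SoxD factor without a transactivation domain that can bind Tcf1, was well above background on all 24 arrays at its tested probe, with a range of -1.74 to -0.37. Its 4 highest arrays were those of experiment 1, one from each treatment. In DoxyNaB/NaB its change was -0.23, lower in 6 of 6 experiments (95% interval -0.48 to 0.02, adjusted p = 0.396 from limma). Its changes in the other comparisons lay between -0.13 and 0.32, with intervals that include 0, and its direction in NaB/Ctl turned with normexp correction (-0.06), quantile normalization (-0.17) and scaling to the median (-0.56). Relative to the median change of all probes it was 0.02 both with that scaling and with the one used here, which differ almost only by a constant per array. Relative to the medians of their own settings it was -0.13 with normexp correction and -0.08 with quantile normalization.

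SOX12, the SoxC relative of SOX4, had median levels of -4.04 in Ctl, -4.60 in NaB, -3.98 in Doxy and -4.02 in DoxyNaB cells, and was well above background on 6, 2, 6 and 5 of 6 arrays. It therefore entered the test only through the treatments without butyrate. The sizes of its changes in NaB/Ctl are uncertain, since most NaB arrays were not well above background. The DoxyNaB array of experiment 2 read 3.03, while the other DoxyNaB arrays lay between -5.34 and -3.85. That array decided the fit. With it, the change in NaB/Ctl was -0.57 (95% interval -2.42 to 1.27, adjusted p = 0.563 from limma) and in DoxyNaB/Doxy 0.69 (adjusted p = 0.483). Without experiment 2, SOX12 was at -0.65 in NaB/Ctl (adjusted p = 0.0206 from limma) and at -0.60 in DoxyNaB/Doxy (adjusted p = 0.0311), which remained under 2-fold and above an adjusted p of 0.01. Experiment 2 was singled out here by its value, so these p-values are descriptions only. In NaB/Ctl it was lower in 6 of 6 experiments, by 0.19 to 1.39.

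The 4 genes without a tested probe were SOX5, SOX7, SOX15 and SOX18. SOX5, a SoxD factor of cartilage and neurons, and SOX18, a SoxF factor of endothelial cells, were well above background on 0 of 24 arrays, and only that bound is known for them. SOX15, the single member of SoxG, was so on 11 arrays and SOX7, a SoxF factor of endoderm and endothelium, on 14. All 11 of the SOX15 arrays and 12 of the 14 SOX7 arrays were from experiments 2 to 4, where 78.4% to 88.1% of spots passed, and in experiments 5 and 6 neither probe passed on any of 8 arrays. The CAG-rich probe of SOX13 followed the same course, with 11 of 12 arrays in experiments 2 to 4 and 0 of 12 in the others. The 2 SOX13 probes can therefore be compared only in experiments 2 to 4. There the mean NaB/Ctl change was 1.71 at the CAG-rich probe and 0.10 at the tested one. In DoxyNaB/Doxy the means were 0.86 and -0.22. The CAG-rich probe was dim in Ctl cells of those experiments, at -5.49 to -5.17, so its sizes are uncertain. The reason for the difference between the probes was not tested.

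**Figure D5:**
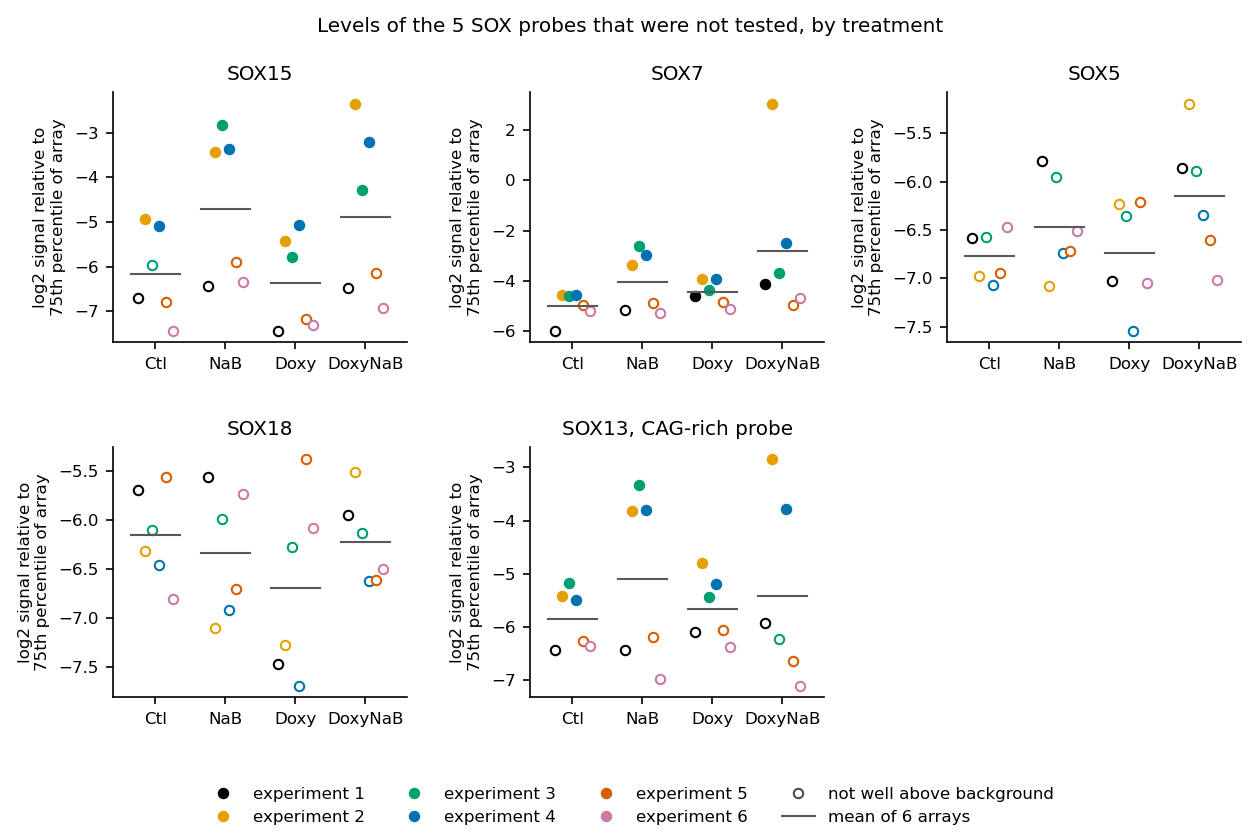
Levels (y axis, log2 ratio of signal to array 75th percentile) of the 5 SOX probes that were not tested, by treatment (x axis), with 1 point per array coloured by experiment, open where not well above background, and a line at the mean of 6 arrays. Filled points come almost only from experiments 2 to 4, SOX5 and SOX18 have none, and SOX7 has a point at 3.04 in the DoxyNaB array of experiment 2.

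SOX15 was higher with butyrate in 6 of 6 experiments in both comparisons, by 0.28 to 3.15 in NaB/Ctl and by 0.40 to 3.08 in DoxyNaB/Doxy. It was well above background on 2 of 6 Ctl and 3 of 6 Doxy arrays, so these sizes are in large part differences from background and no test of them is given. The mean change in NaB/Ctl was 2.12 in experiments 2 to 4 and 1.00 in experiments 5 and 6, where no array was well above background. SOX7 levels in DoxyNaB cells rested on the array of experiment 2, at 3.04 against -4.97 to -2.51 on the other 5. Without experiment 2 the mean SOX7 change in DoxyNaB/Doxy was 0.57, against 1.63 with it.

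The wider family added no tested gene. Of 9 other SOX genes on the array, 0 were tested. Their probes were well above background on 0 to 14 of 24 arrays. A list of 21 genes that encode SOX partners or known SOX targets had 12 tested genes, of which 4 were called higher and 1 lower in NaB/Ctl, where 20.7% of all probes were called higher and 11% lower, and 0 in Doxy/Ctl, DoxyNaB/NaB or the interaction by limma. At an unadjusted p under 0.05 the counts in these last comparisons were 0, 2 and 0. The median change of the 12 genes in NaB/Ctl was 0.85, against 0.17 over all probes tested, and nothing particular to the list follows from it. The 4 higher genes were COMP of the cartilage matrix at 3.97 (adjusted p = 6.6e-09 from limma, well above background on 18 of 24 arrays, so that the size is uncertain), TUBB3, a neuronal tubulin, at 2.12 (adjusted p = 5.01e-12), PAX6, a SOX2 partner in the eye, at 1.39 (adjusted p = 0.00217) and NES, the neural progenitor filament nestin, at 1.05 (adjusted p = 1.23e-07). The lower gene was TEAD2, a SOX4 target, at -2.27 (adjusted p = 4.72e-08, well above background on 22 of 24 arrays). In DoxyNaB/Doxy the 4 higher genes were COMP, TUBB3, COL11A2 at 1.18 (adjusted p = 2.92e-07) and AMH at 1.02 (adjusted p = 2.01e-07), the last pair named after their values were seen, and TEAD2 was again lower at -2.66 (adjusted p = 5.63e-09). COL11A2 and AMH are known targets of SOX9 in cartilage and testis. In NaB/Ctl they also rose, by 0.91 and 0.78 (adjusted p = 7.81e-06 and 5.23e-06 from limma), which is under 2-fold. Their interactions were -0.28 and -0.23 (adjusted p = 0.633 and 0.626). In DoxyNaB/Doxy PAX6 was not called (adjusted p = 0.0471), nor was NES, whose change of 0.83 was under 2-fold.

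Markers of cells that the line should lack were read beside these values. Of 6 such genes, 0 were counted as well above background on all arrays, COL3A1 was so on 0 and COL1A1 on 23. COL1A1 rose by 1.09 in NaB/Ctl (adjusted p = 1.39e-08 from limma) and by 1.37 in DoxyNaB/Doxy (adjusted p = 5.69e-10). Of the 5 epithelial markers tested, 1 was called lower in each of these comparisons and 0 higher, with a median change of the 5 of 0.63 and 0.61. The lower one was EPCAM at -1.45 and -1.50 (adjusted p = 3.62e-05 and 2.65e-05), while CDH1 had a change of 0.99, KRT19 of 0.97, KRT8 of 0.63 and KRT18 of 0.12 in NaB/Ctl. CDH1, KRT19 and KRT8 passed the adjusted p there and were under 2-fold. The summed signal of the 6 markers, in units of the 75th percentile of the array, ran from 0.349 to 0.891 in Ctl, 0.612 to 1.74 in NaB, 0.366 to 0.880 in Doxy and 0.769 to 2.34 in DoxyNaB cells, and that of the 6 epithelial markers from 209 to 299, 274 to 501, 215 to 296 and 252 to 372. Their part in the SOX values was not tested. In bulk arrays, fewer cells that express a gene and less RNA per cell cannot be told apart.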

How the data were processed

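Total RNA of the 24 cultures was labelled and hybridized by a service laboratory to Agilent 4x44K whole genome arrays. The deposited files hold spot intensities written by Agilent Feature Extraction 9.5.3.1 per the file headers, with background and spatial trend removed within each array and no scaling between arrays; the methods name GeneSpring and a paired t-test. Control spots and 359 to 795 outlier spots per array were left out here, and replicate spots were averaged. The log2 of the processed signal intensity minus that of the 75th percentile (380.2 to 1323 signal units) was the level. Well above background used the software's multiplier of 13. In counts of arrays, an array on which all spots of a probe were left out counts as not well above background. The number of arrays limits the precision.

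Treatments were compared with limma 3.58.1 in R 4.3.3 (lmFit and eBayes, 24 arrays, experiment as a block) over 18984 probes for 15163 genes, with Benjamini-Hochberg adjusted p-values. Calls needed an adjusted p under 0.01 and, in NaB/Ctl and DoxyNaB/Doxy, a fold over 2. A gene with 2 probes was represented by the brighter one. The script was tested on simulated data. The arrays of an experiment were paired since the study's statistics were paired and since each of experiments 2 to 6 was on 1 slide. After subtraction of the treatment mean, arrays of an experiment correlated with r from 0.219 to 0.853 in 35 of 36 pairs of arrays, and with r = -0.224 in the other. The methods call the 6 experiments biological replicates.

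The members, lists and tests were chosen with earlier results of these data known. Alternatives were normexp correction (offset 50), quantile normalization, division by the array median with signals floored at 5, dropping the filter, requiring all 24 arrays above background, leaving out the replicate block or taking the slide instead, fitting only the arrays compared, the methods' t-test (adjusted or not), an adjusted p of 0.05, the fold threshold exchanged, the mean over probes, leaving out each experiment, experiments 2 to 4 or 5 and 6 only, and leaving out the NaB array of experiment 3 and the DoxyNaB array of experiment 2, which had the highest negative controls. Every SOX member was described, listed genes were named when called in NaB/Ctl, DoxyNaB/NaB or the interaction, and for members called in the latter pair the 3 genes with the highest Pearson correlation were named. Python 3.11.15 made tables and plots.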

Additional observations from a re-analysis of the deposited data

Results flagged for a closer look

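In 40 groups of 6 arrays, 1 probe in 1 treatment each, 4 had an array far from the others, where chance gives about 1 in 20. The SOX12 probe read 3.03 and the SOX7 probe 3.04 in the DoxyNaB array of experiment 2, against -5.34 to -3.85 and -4.97 to -2.51 in the other 5 arrays. On that array 48 of 34127 probes lay more than 4 log2 units above all other DoxyNaB arrays. The other 23 arrays had 0 to 42 such probes against the arrays of their own treatment. The negative controls of the DoxyNaB array of experiment 2 read 248.9, the highest of all arrays. The part of these in the SOX12 and SOX7 values was not tested. SOX12 also read -4.32 in the NaB array of experiment 6, against -4.69 to -4.58 in the others, and SOX2 read -5.78 in the Doxy array of experiment 5, where it was not well above background, against -5.34 to -5.10.

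The butyrate response of SOX9 without doxycycline exceeded that with doxycycline by 1.01 (adjusted p = 0.000446 from limma), and the direction was the same in 6 of 6 experiments.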

How the results depend on the processing

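The calls of SOX2 and SOX8 in NaB/Ctl and DoxyNaB/Doxy were made under every alternative run, except that SOX2 left the test with the filter on all arrays, which gave 1 call in each. Without the filter 3 genes were called in each, SOX15 in addition, a probe well above background on 11 of 24 arrays. In DoxyNaB/Doxy 4 genes were called with scaling to the median and with no fold threshold, SOX4 and SOX9 being lower. In Doxy/Ctl 1 gene, SOX9, was called with the methods' t-test without adjustment. In DoxyNaB/NaB 3 genes, SOX2 in addition, were called with the methods' t-test without adjustment, and 0 genes were called with scaling to the median, only the arrays compared, the methods' t-test with adjustment, a fold over 2, experiments 2 to 4 or experiments 5 and 6. In the interaction 2 were called with quantile normalization, the t-test without adjustment and an adjusted p under 0.05, SOX4 joining SOX9, and 0 with scaling to the median, the adjusted t-test, experiments 2 to 4 or experiments 5 and 6. The cause was not tested. Leaving out each experiment in turn gave 2, 2, 0, 2 and 1 calls in NaB/Ctl, DoxyNaB/Doxy, Doxy/Ctl, DoxyNaB/NaB and the interaction. With no replicate block, in place of the pairing by experiment, the counts were also 2, 2, 0, 2 and 1. The interaction was not run with only the arrays compared, since it uses all arrays.

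Of 644 single-gene values under alternatives, 594 kept their direction and side of the threshold, 9 passed it in addition, 16 no longer passed and 25 changed sign, all of them uncalled. In NaB/Ctl these were SOX4 with normexp (0.044), quantile normalization (0.12) and experiments 5 and 6 (0.048), SOX13 with normexp (-0.057), quantile normalization (-0.17) and scaling to the median (-0.56), and SOX9 with scaling to the median (-0.46). In DoxyNaB/Doxy they were SOX12 without the 2 arrays of highest negative controls (-0.60) and without experiment 2 (over the experiments left out in turn the range was -0.60 to 1.13), and SOX13 with normexp (0.12) and experiments 5 and 6 (0.0099). In Doxy/Ctl they were SOX2 with experiments 2 to 4 (0.048), SOX4 with experiments 5 and 6 (0.020), SOX12 with normexp (-0.19), quantile normalization (-0.061) and scaling to the median (-0.013), SOX13 with experiments 2 to 4 (-0.0097) and without experiment 6 (range over those left out in turn -0.012 to 0.19), and SOX8 with experiments 5 and 6 (0.23) and without experiment 1, 2 or 4 (range -0.077 to 0.031). SOX13 turned with normexp in DoxyNaB/NaB (0.19) and in the interaction (-0.18), and SOX8 in the interaction with scaling to the median (-0.037). For SOX2, SOX12 and the untested genes, signal near background limits what the arrays can show.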
